A study of Mus musculus with 4 samples.

Results

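The interferon regulatory factors are transcription factors that share an N-terminal DNA-binding domain and recognise GAAA-rich sites in the promoters of interferon and immune genes. The 8 genes described here are Irf1, Irf2, Irf3, Irf4, Irf5, Irf7, Irf8 and Irf9, chosen by their symbols from 50600 genes in the files, and each was found once. They were measured in 4 RNA-seq libraries of mouse regulatory T cells, the CD4 T cells that restrain immune responses and are defined by the transcription factor Foxp3. All 4 were primary cells of strain C57BL/6NJ in 1 group, labelled biological replicates 1 to 4, and neither sex nor age was given. The linked culture protocol is for CD4 T cell differentiation, run names inside the files read activated and 72h, and 1 donor identifier is given for every library. Whether each culture came from its own animal is not said, so the p-values measure only the spread between these libraries, part of which may be technical. With no second group, levels were compared between genes within each library, and spread was measured between libraries.

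Members of the family divide by how they are controlled. Irf3, Irf5 and Irf7 are proteins that are switched on by kinases downstream of sensors of microbial nucleic acids, after which Irf3 and Irf7 turn on type I interferon genes. Irf9 joins STAT proteins in the complex that carries the type I interferon signal to the nucleus, and Irf1 and Irf2 are respectively an activator and mostly a repressor at shared sites. Irf4 and Irf8 are each other's closest relatives, bind DNA weakly alone and act with partners such as the Batf-Jun dimers and the Ets factor Spi1. Irf4 is induced by the antigen receptor and is needed for effector regulatory T cells, whereas Irf8 is best known from myeloid cells, dendritic cells and B cells.

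The libraries held 51460018 to 121477975 counts on genes, a ratio of 2.36. All 10 markers fixed for regulatory T cells reached 1 TPM (transcript abundance: counts over gene length, rescaled so that all genes of a library add up alike) in every library, with the lineage factor gene Foxp3 at 448 ± 27.8 TPM (SD, n = 4) and Ikzf2 the lowest at 16.4 ± 3.61 TPM. In the edgeR spread test 0 of these 10 markers passed, DESeq2 marked 0 as dispersion outliers, and 3 had an unadjusted p under 0.05 against 4.70% of all genes. The silencing RNA Xist was at 173 and 199 TPM in replicates 1 and 2 and at 0.592 and 0.758 TPM in replicates 3 and 4, although 1 donor identifier is given for all 4. It was the 1 gene of 13625 tested that passed the spread test described below (edgeR quasi-likelihood, adjusted p = 1.8e-05).

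Irf4 and Irf8 stood far above the rest of the family. Irf4 (gene ENSMUSG00000021356.9, mm10 chromosome 13, 30749226 to 30766927, plus strand) was at 750.5, 828, 748 and 817 TPM in replicates 1 to 4. Its mean of 786 ± 42.6 TPM (SD, n = 4) placed it 142nd among 21764 protein-coding genes. Irf8 (ENSMUSG00000041515.9, chromosome 8, 120736358 to 120756694, plus strand) was at 799, 808, 740.4 and 833 TPM, with a mean of 795 ± 39.0 TPM and the 137th place. The ranges of both genes overlapped almost entirely, and Irf8 was the higher in replicates 1 and 4 and Irf4 in replicates 2 and 3. On the log2(TPM + 0.1) scale Irf8 differed from Irf4 by 0.09, -0.03, -0.01 and 0.03 in replicates 1 to 4, a mean of 0.02 ± 0.05 (exact two-sided sign-flip p = 0.75). Together they made up 81.0 ± 0.973% of the summed TPM of the 8 genes (range 80.0% to 82.1%), which was 1952 ± 76.7 TPM.

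This near equality in TPM rests on the lengths used. The files give Irf8 a merged exon length of 7055 bp, which is 2.48 times the 2847 bp of its longest principal transcript in GENCODE M21, whereas the merged 4715 bp of Irf4 is 0.990 times its 4764 bp. With principal transcript lengths for the 22248 genes that have one, an alternative added after seeing the data, Irf8 was at 1408, 1432, 1308 and 1464 TPM and Irf4 at 528, 586, 528 and 574 TPM. On that scale the groups of values did not overlap, and Irf8 exceeded Irf4 by 1.34 ± 0.05 on the log2 scale in 4 of 4 libraries. In CPM (counts scaled by library total alone, with no length), Irf8 exceeded Irf4 by 0.60 ± 0.05 on the log2 scale. Which transcripts of Irf8 the cells made was not measured.

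The stretch before the start of each gene was examined because Irf4 and Irf8 stood together at the top of the family. All 8 genes matched a RefSeq entry (GRCm38.p6, the assembly of mm10), with 11 start sites in all, and the 250 bases before each were searched on both strands for 4 motifs. These were the interferon-stimulated response element (GAAA and GAAA with any 2 bases between), the STAT site (TTCNNNGAA), an NF-kappaB site (GGGA and CC with any 4 bases between) and the AP-1 site (TGANTCA). The 4 genes with any match are printed 5′ to 3′ on their own plus strand, with the matches in capitals (for Irf8 and Irf1 the first of 2 start sites), and no matches overlapped each other.
Irf4, chr13:30748983-30749232: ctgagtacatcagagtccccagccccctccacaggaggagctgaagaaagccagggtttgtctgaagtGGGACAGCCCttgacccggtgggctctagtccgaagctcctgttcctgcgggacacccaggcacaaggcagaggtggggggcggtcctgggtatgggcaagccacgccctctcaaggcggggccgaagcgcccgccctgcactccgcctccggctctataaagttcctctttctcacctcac
Irf8, chr8:120736108-120736357: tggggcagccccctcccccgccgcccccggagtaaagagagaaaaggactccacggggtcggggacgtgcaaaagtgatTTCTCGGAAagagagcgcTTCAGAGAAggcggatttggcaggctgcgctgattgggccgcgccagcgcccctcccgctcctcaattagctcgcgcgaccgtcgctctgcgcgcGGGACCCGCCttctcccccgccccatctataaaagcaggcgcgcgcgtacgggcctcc
Irf1, chr11:53769764-53770013: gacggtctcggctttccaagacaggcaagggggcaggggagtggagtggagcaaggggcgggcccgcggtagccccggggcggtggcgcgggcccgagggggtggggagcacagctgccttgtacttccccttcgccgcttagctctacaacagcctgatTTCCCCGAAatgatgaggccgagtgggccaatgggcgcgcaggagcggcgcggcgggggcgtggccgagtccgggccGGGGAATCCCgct
Irf2, chr8:46739495-46739744: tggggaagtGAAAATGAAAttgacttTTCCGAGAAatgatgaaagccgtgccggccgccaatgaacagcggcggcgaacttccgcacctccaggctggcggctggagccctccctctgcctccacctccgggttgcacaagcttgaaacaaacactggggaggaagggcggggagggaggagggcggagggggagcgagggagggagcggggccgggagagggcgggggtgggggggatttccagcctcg

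Irf4 had 1 match, an NF-kappaB site from base -182 to base -173 relative to its start. Irf8 had 1 NF-kappaB site and 2 STAT sites, Irf1 had 1 NF-kappaB site and 1 STAT site, and Irf2 had 1 response element and 1 STAT site. By start site, 3 of 11 Irf windows held the NF-kappaB letters against 17.6% of all 32851 windows, 3 of 11 held the STAT letters against 7.02%, 1 held the response element against 2.98%, and 0 held the AP-1 letters against 6.75%. The G and C content of the 11 Irf windows was 53.6% to 74.4%, against a median of 52.4% for promoter windows. Its part in the number of matches was not tested. A match is a description of letters, and binding was not measured.

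**Figure D1:**
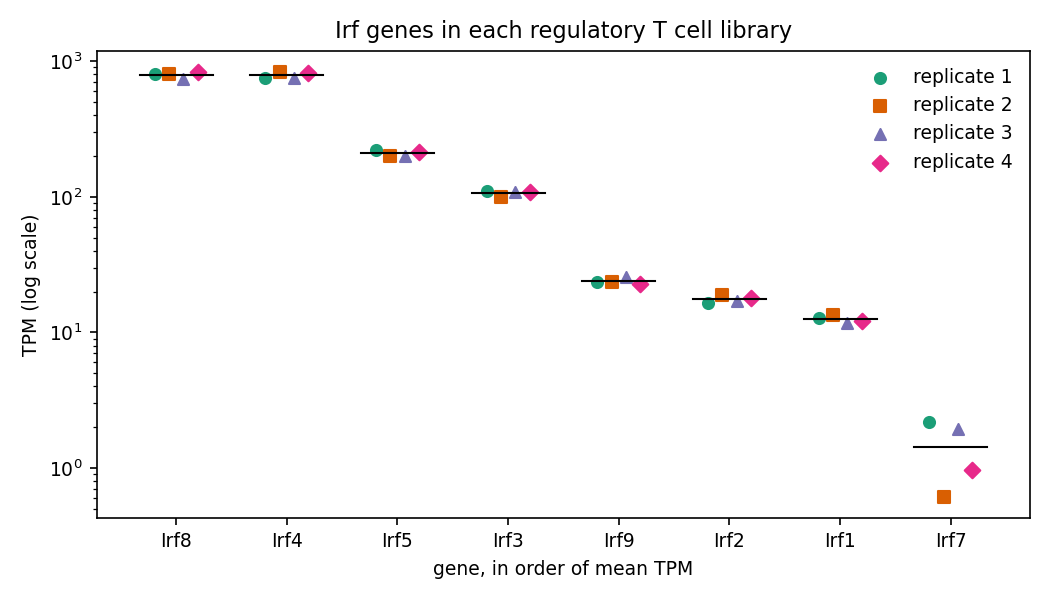
TPM of the 8 Irf genes (log axis) in order of mean TPM; each point is 1 of 4 libraries, and bars mark the means. Irf8 and Irf4 lie at 740.4 to 833 TPM, Irf7 lies between 0.615 and 2.19 TPM, and Irf7 is the gene whose points spread most.

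**Figure D2:**
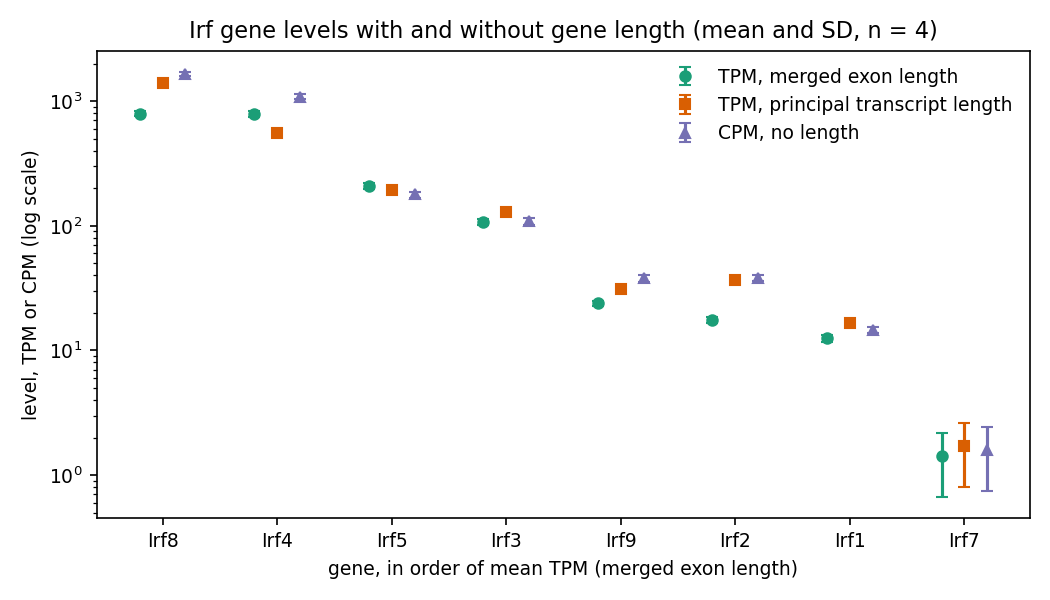
Mean level and SD over 4 libraries (log axis) as TPM by merged exon length, as TPM by principal transcript length and as CPM. Irf8 separates from Irf4 when the principal transcript length or no length is used, and Irf9 and Irf2 change order.

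The factors that act downstream of microbial sensors were spread over the whole range of the family. Irf5, which drives inflammatory cytokine genes in macrophages and B cells (ENSMUSG00000029771.12, chromosome 6, 29526625 to 29541871, plus strand), was at 222, 199.7, 199 and 216 TPM, a mean of 209 ± 11.5 TPM (SD, n = 4). All 4 values lay below every value of Irf4 and Irf8 and above every value of Irf3. Irf3, which turns on Ifnb1 (ENSMUSG00000003184.15, chromosome 7, 44997648 to 45002848, plus strand), was at 111, 99.5, 109 and 109 TPM, a mean of 107 ± 5.25 TPM. Irf7, the amplifier of the type I interferon response (ENSMUSG00000025498.15, chromosome 7, 141262706 to 141266481, minus strand), was at 2.19, 0.615, 1.93 and 0.966 TPM, a mean of 1.43 ± 0.754 TPM (SD, n = 4). Replicates 1 and 3 were high for Irf7 and replicates 2 and 4 low, and it was the only Irf gene under 1 TPM in any library. Irf3 therefore exceeded Irf7 by 6.29 ± 0.73 on the log2(TPM + 0.1) scale in 4 of 4 libraries.

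Irf1, Irf2 and Irf9 were moderate. Irf9 (ENSMUSG00000002325.14, chromosome 14, 55603571 to 55610030, plus strand) was at 23.7, 23.7, 25.6 and 22.7 TPM in replicates 1 to 4, a mean of 23.9 ± 1.20 TPM (SD, n = 4). Irf2 (ENSMUSG00000031627.9, chromosome 8, 46739732 to 46847458, plus strand) was at 16.4, 18.9, 17.1 and 17.8 TPM, a mean of 17.6 ± 1.07 TPM. Irf1 (ENSMUSG00000018899.16, chromosome 11, 53770014 to 53778374, plus strand) was at 12.7, 13.4, 11.7 and 12.1 TPM, a mean of 12.5 ± 0.775 TPM. The 3 ranges did not overlap, with Irf9 above Irf2 and Irf2 above Irf1. The repressor Irf2 exceeded the activator Irf1 by 0.49 ± 0.09 on the log2(TPM + 0.1) scale, and by 1.16 ± 0.09 with principal transcript lengths.

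Of the 28 pairs of Irf genes, 27 had the same order in 4 of 4 libraries, the exception being Irf4 and Irf8. For each of the 27, 2 of 16 sign assignments gave a mean difference as large, the fewest that 4 libraries allow, so the exact sign-flip p was 0.125 and 0.130 after Benjamini-Hochberg adjustment over 28 pairs. In order of mean TPM the steps were 1.91 ± 0.12 from Irf4 to Irf5, 0.96 ± 0.07 from Irf5 to Irf3, 2.16 ± 0.10 from Irf3 to Irf9, 0.44 ± 0.13 from Irf9 to Irf2 and 3.19 ± 0.85 from Irf1 to Irf7, all on the log2(TPM + 0.1) scale. The step from Irf9 to Irf2 turned to -0.26 with principal transcript lengths and to -0.01 in CPM. The other steps kept their direction on those scales.

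Reaching 1 TPM in every library was common: 7 of 8 Irf genes did so, against 48.9% of protein-coding genes and 23.7% of all genes. The 48.9% is also the background for the counts given for the gene lists. Fewer expressing cells and less RNA per cell cannot be told apart in these bulk libraries.

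The spread of each Irf gene between libraries was then set against genes of like abundance. No Irf gene of the 8 tested passed the edgeR quasi-likelihood dispersion test (adjusted p 0.965 to 0.999), in which 0.00734% of 13625 genes passed. Since Xist alone passed, not passing does not show that a gene varied no more than its trend, here or in the gene lists. DESeq2 marked 0 of the 8 as dispersion outliers, and 43 genes in all. Irf7 was the 1 Irf gene under an unadjusted p of 0.05 in the edgeR quasi-likelihood test across all genes, against 4.70% of all tested genes. Its unadjusted edgeR p was 0.0214. For 7 genes the coefficient of variation of TPM lay between 4.90% for Irf3 and 6.21% for Irf1, and the highest library was 1.11 to 1.15 times the lowest. Counting alone would give 0.294% for Irf8, 0.361% for Irf4 and 3.14% for Irf1, which is the precision that depth sets. Irf4 and Irf8 had dispersions of 0.409 and 0.448 times those of their trend, and Irf1 0.192 times. Leaving out replicate 2, with the normalization and trend refitted on the remaining libraries, changed the side of the trend for some of them. On the log2 scale the ratio of Irf4 was -1.29 with all libraries and 0.79 without replicate 2. That of Irf8 was -1.16 and 1.36, and that of Irf9 -0.49 and 0.66. The ratio of Irf3 went the other way, from 0.22 to -2.93. The part of the refitted trend in these changes was not tested.

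Irf7 had the largest coefficient of variation of the 8, 52.9%, where counting alone would give 11.4%, and a dispersion 6.60 times that of its trend. That ratio did not pass the edgeR test over all genes (adjusted p = 0.965), and on the log2 scale it was 2.72 with all libraries and 2.11 without replicate 2. Its counts were 295, 42, 161 and 55 in replicates 1 to 4. The 95% exact Poisson intervals in TPM, which cover counting error only, were 1.94 to 2.45, 0.444 to 0.832, 1.65 to 2.26 and 0.727 to 1.26. The intervals of replicates 1 and 3 lay above those of replicates 2 and 4. This order did not follow Xist, which was high in replicates 1 and 2.

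**Figure D3:**
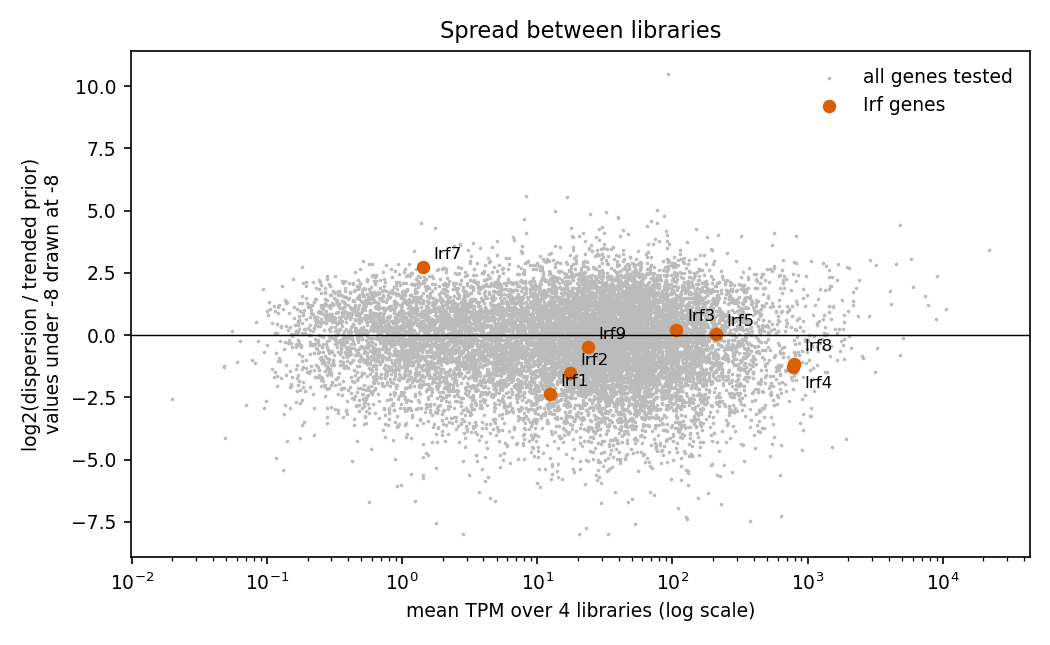
Dispersion between libraries relative to its trended prior (log2) against mean TPM (log axis) for 13625 genes, with the Irf genes marked. Irf7 lies above the line at 0, at 2.72, while Irf1, Irf2, Irf4, Irf8 and Irf9 lie below it. With the trend refitted without replicate 2, Irf4, Irf8 and Irf9 lie above it (0.79, 1.36 and 0.66) and Irf3 below it.

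Irf7 is itself a target of the Irf9 complex, so interferon-stimulated genes are set beside it. Of 28 such genes, 14 reached 1 TPM in every library, a share close to the 48.9% of all protein-coding genes. The list median was 2.07 TPM against 1.04 TPM for all protein-coding genes. The highest were the immunoproteasome subunit gene Psmb8 (336 ± 8.54 TPM; SD, n = 4), the tetherin gene Bst2 (227 ± 27.5 TPM) and the peptide transporter gene Tap1 (78.3 ± 9.93 TPM), and the antiviral gene Rsad2 was lowest at 0.00907 ± 0.0107 TPM. Of 18 tested for spread, 0 passed in edgeR, and 2 had an unadjusted p under 0.05, Tap1 (0.0396) and Nlrc5 (0.0234), against 4.70% of all genes. DESeq2 marked 0 of the 18 as dispersion outliers.

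The 28 genes did not all peak in the same library. Irf7 was highest in replicate 1 and lowest in replicate 2. Replicate 1 was the highest library for 13 of the 28, replicate 3 for 9, replicate 2 for 5 and replicate 4 for 1. Among the 26 with a single lowest library, this was replicate 4 for 11, replicate 2 for 8, replicate 3 for 6 and replicate 1 for 1. How often each library was highest or lowest over all genes was not counted, so these numbers have no background. The same holds for the split of replicates 1 and 3 from 2 and 4 given below. Some of the 28 rest on few counts, such as Rsad2 with 0, 0, 2 and 1 in replicates 1 to 4. Individual genes, picked after their values were seen to show both kinds, ran alike or otherwise. The ubiquitin-like modifier gene Isg15 was at 4.70, 1.46, 4.74 and 2.54 TPM in replicates 1 to 4, with the same libraries high as Irf7. Replicates 1 and 3 also lay above replicates 2 and 4 for Tap1, Psmb9, Trim30a, Ifit2, Zbp1, Dhx58, Gbp2, Xaf1, Ifit1, Oasl1 and Oas1a. The other genes of the 28 did not share this split. The antiviral gene Ifit3 was at 0.978, 0.539, 0.364 and 0.228 TPM, and Nlrc5, a regulator of MHC class I genes, at 6.09, 7.32, 3.86 and 4.82 TPM, and neither shared that order. The summed TPM of the 28 genes, most of it from Psmb8 and Bst2, was 874, 757, 779 and 792.

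**Figure D4:**
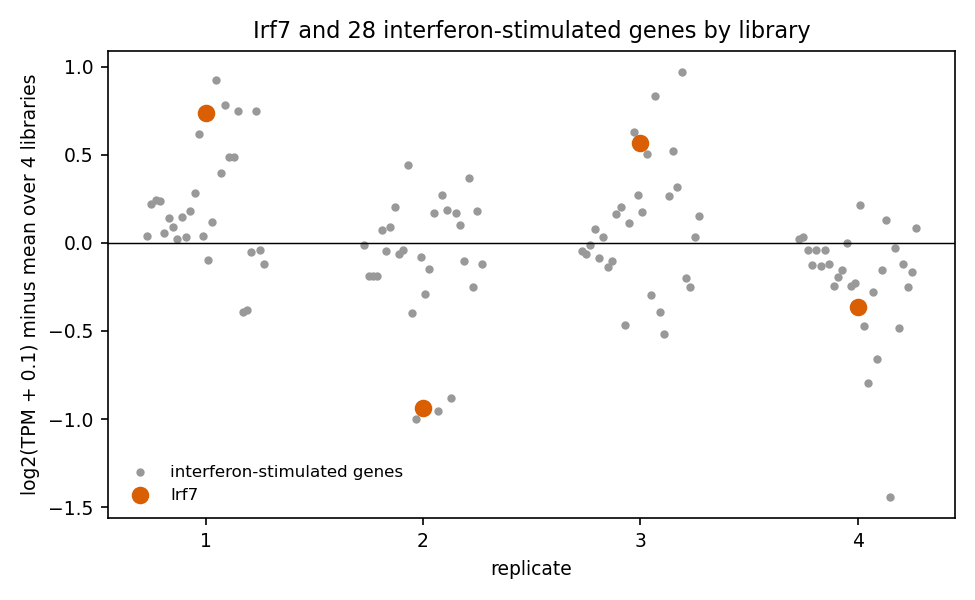
log2(TPM + 0.1) minus its mean over 4 libraries, by replicate, for Irf7 (large points) and each of 28 interferon-stimulated genes (small points). Irf7 lies above 0 in replicates 1 and 3 and below 0 in replicates 2 and 4, while the 28 genes scatter on both sides of 0 in each replicate.

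Ligands of the pathway were almost silent while its receptors were present. Of 11 interferon ligand genes, 0 reached 1 TPM in every library and 9, among them Ifnb1 and Ifnk, had 0 counts in all 4. Ifng was the highest, at 1.51, 0.812, 0.350 and 0.205 TPM in replicates 1 to 4, and Ifnl2 had counts in replicate 1 alone. All 11 receptor and transducer genes reached 1 TPM in every library, with a list median of 46.3 TPM. The kinase genes Jak1 (201 ± 12.3 TPM; SD, n = 4) and Jak2 (149.6 ± 14.0 TPM) and the interferon-gamma receptor chain Ifngr2 (62.1 ± 1.49 TPM) led, and the type III interferon receptor gene Ifnlr1 was lowest at 2.35 ± 0.619 TPM. Stat2, a partner of Irf9, was at 22.8 ± 0.550 TPM, beside 23.9 ± 1.20 TPM for Irf9.

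Sensors, adaptors and kinases that activate Irf3, Irf5 and Irf7 were mostly present, with 17 of 19 at 1 TPM in every library and a median of 23.9 TPM. The cytosolic DNA adaptor Tmem173 (STING) led at 457 ± 33.9 TPM (SD, n = 4), and its upstream sensor Cgas was at 13.4 ± 1.80 TPM. Traf6 (136 ± 14.3 TPM) and Myd88 (107 ± 3.95 TPM), which carry Toll-like receptor signals, followed. The kinase genes Tbk1 and Ikbke, which phosphorylate Irf3, were at 36.3 ± 5.75 and 50.7 ± 5.38 TPM. Tlr3 and Tlr4 were the members under 1 TPM, and Tlr4 was lowest at 0.0413 ± 0.0310 TPM. None of the 17 tested passed the spread test in edgeR, with 0 at an unadjusted p under 0.05, and DESeq2 marked 0 as dispersion outliers.

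Partners of Irf4 and Irf8 were uneven. Of 10 listed DNA-binding partners, 8 reached 1 TPM in every library, with Junb at 1452 ± 132 TPM (SD, n = 4), Jund at 1241 ± 47.5 TPM and the E protein gene Tcf3 at 209.9 ± 17.3 TPM highest. Batf, which pairs with Jun proteins at sites shared with Irf4, was at 158, 130, 148 and 143 TPM in replicates 1 to 4, below Irf4 and Irf8 in every library. Its relative Batf3 was at 19.9 ± 3.47 TPM, and Batf2 had 0 counts. The Ets partners differed: Ets1 was at 203 ± 9.30 TPM, Spib at 8.47 ± 1.43 TPM and Spi1, the partner of Irf8 in myeloid cells, at 0.0622 ± 0.0930 TPM.

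The signalling genes that induce Irf4 after antigen receptor engagement were all present. All 10 reached 1 TPM in every library, with a median of 93.0 TPM, and the NF-kappaB subunit genes Nfkb1 (342 ± 18.5 TPM; SD, n = 4) and Rela (177 ± 8.63 TPM) were among the 3 highest. Rel, the NF-kappaB subunit tied most closely to Irf4, was at 117 ± 9.79 TPM, and Prkcq was lowest at 39.3 ± 1.96 TPM. Of 12 corepressors and protein regulators, 11 reached 1 TPM in every library. Socs1 (409 ± 40.9 TPM), which blocks Jak kinases, the chaperone gene Fkbp4 (408 ± 27.3 TPM) and Def6 (278 ± 23.0 TPM), whose product binds Irf4, were highest, and Usp18 was lowest. The corepressor genes Irf2bp2, Irf2bpl and Irf2bp1 were at 126 ± 4.63, 84.1 ± 3.72 and 62.6 ± 3.44 TPM, each above Irf2 itself.

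Genes tied to Irf4 in effector T cells differed widely in level. Of 10, 6 (60.0%) reached 1 TPM in every library, against 48.9% of protein-coding genes. The highest were the chemokine receptor gene Ccr8 (791 ± 35.7 TPM; SD, n = 4), the costimulatory receptor gene Icos (103 ± 18.3 TPM) and the repressor gene Bach2 (88.3 ± 4.37 TPM). Prdm1, which encodes the effector regulator Blimp-1, was at 0.381, 0.288, 0.211 and 0.452 TPM, and Il10 at 0.406, 0.169, 0.624 and 0.557 TPM. Klrg1 had 0 counts in all 4 libraries. Of the 8 tested for spread, 0 passed in edgeR, and DESeq2 marked 0 as dispersion outliers, while 2, Icos and Maf, had an unadjusted edgeR p under 0.05 (0.0286 and 0.0185), against 4.70% of all genes.

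**Figure D5:**
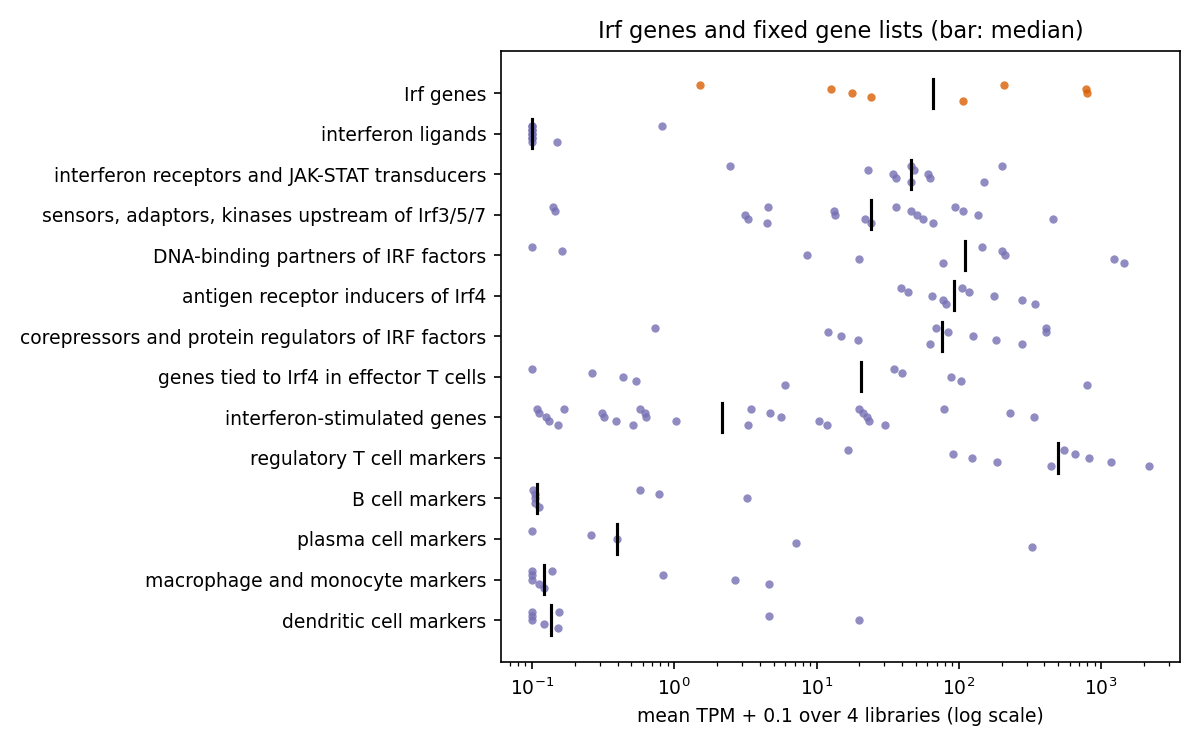
Mean TPM + 0.1 over 4 libraries (log axis) of each member of the Irf genes and of 13 gene lists, with bars at the medians. The medians of interferon ligands and of B cell, macrophage and dendritic cell markers lie near the left edge, while Irf4 and Irf8 (786 and 795 TPM) and the median of the regulatory T cell markers (497 TPM) lie toward the right.

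B cells, plasma cells and myeloid cells include strong expressers of Irf4, Irf5 or Irf8, though not each type of all 3, so the markers of those cells were measured. Of 8 B cell markers, 1 (Cd79b, 3.14 ± 0.672 TPM; SD, n = 4) reached 1 TPM in every library, and their summed level was 3.21 to 4.73 TPM. Ms4a1, which encodes CD20, was at 0.00536 ± 0.0107 TPM. Of 9 macrophage and monocyte markers, Cd68 (4.51 ± 1.39 TPM) and Adgre1 (2.55 ± 0.860 TPM) reached 1 TPM in every library, the sum was 7.09 to 8.69 TPM, and Lyz2, Fcgr1 and Ly6c2 had 0 counts. Of 8 dendritic cell markers, Batf3 and Zbtb46 (4.51 ± 0.437 TPM) did so, the sum was 21.5 to 29.3 TPM, most of it from Batf3, and Clec9a, Siglech and Cd209a had 0 counts. Of 5 plasma cell markers, Xbp1 (326 ± 8.13 TPM) and Sdc1 (7.02 ± 0.402 TPM) did so, both of which other cells also express, and Tnfrsf17 had 0 counts. The part of such cells in the levels of Irf4, Irf5 and Irf8 was not tested.

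The genes nearest to each Irf gene in level and profile were found by the largest absolute difference of log2(TPM + 0.1) over the 4 libraries. Irf4 was followed most closely by the actin-branching gene Arpc2 (792 ± 53.8 TPM; SD, n = 4), with a largest difference of 0.06, and by Anp32b (793 ± 40.4 TPM), with 0.08. For Irf8 the nearest were Ddb1 (785 ± 12.0 TPM) at 0.08 and the chaperonin gene Cct5 (771 ± 17.8 TPM) at 0.09. Irf3 lay within 0.01 of Tut1 and 0.04 of Rab24, Irf5 within 0.05 of Parp1 and 0.06 of Nacc1, Irf9 within 0.02 of Clcn7 and 0.06 of Rcn2, Irf2 within 0.04 of Dnajb6 and of Tox, and Irf1 within 0.07 of Atpaf1. Irf7 had no neighbour as close: Obsl1 differed by up to 0.27 and Siglece by up to 0.30. The search covered 21764 protein-coding genes over 4 libraries, and the likeness is a description of level and profile only.

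Genes beside the Irf genes on the chromosome ranged from 0 counts to 587 TPM. Exons of Irf5 share 411 bp with those of Tnpo3 on the opposite strand (55.1 ± 2.68 TPM; SD, n = 4), Irf3 shares 88 bp with Bcl2l12 (41.7 ± 3.06 TPM), Irf7 45 bp with Phrf1 (69.4 ± 2.34 TPM) and Irf1 135 bp with Gm17334 (0 counts), each on opposite strands that the stranded counting keeps apart. Irf9 shares 123 bp, 2.28% of its exons, with Rnf31 on the same strand (54.6 ± 4.13 TPM), and the headers show no setting for counting fragments that overlap several genes. Irf8 lies inside the annotated span of Gm20388 (0 counts) and shares no exon with it. Irf4 has no overlapping gene and lies between Dusp22 (21.2 ± 1.62 TPM) and Exoc2 (108 ± 8.74 TPM), both well below it. The nearest non-overlapping protein-coding genes of Irf8 were Cox4i1 (587 ± 40.8 TPM) and Foxf1 (0 counts), those of Irf2 included Enpp6 (0 counts), and those of Irf9 included the proteasome activator gene Psme2 (395 ± 13.8 TPM).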

How the data were processed

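Deposited values are raw fragment counts for each gene. Per the file headers, the authors counted with featureCounts 1.4.6-p4 against GENCODE M13 (mm10), taking read pairs in which both mates aligned, with strand setting 2 and exons summed within a gene. File names inside the headers include star2; an aligner version is not given in the sources used here. Per the labels, this was total RNA-seq, although a linked protocol is for poly(A)+ RNA. The deposited files also give merged exon lengths. TPM was computed here from counts and those lengths. Of 50600 gene identifiers, 50376 matched a symbol without the version, and gene types and principal transcript lengths came from GENCODE M21.

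Within every library, log2(TPM + 0.1) was subtracted between 2 Irf genes, and the 4 differences were given an exact sign-flip test (two-sided). For spread, edgeR 4.0.16 was run under R 4.3.3 (TMM, filterByExpr, intercept-only quasi-likelihood fit, robust prior), as the ratio of a gene's dispersion to the trend, called at adjusted p under 0.05. The method was checked on simulated data with the same dispersion for every gene, in which only genes of higher counts were changed. That check does not show how large a spread the test would find in these data. limma 3.58.1 and DESeq2 1.42.0 were alternatives. Python 3.11.15 made tables and plots. Counts and intervals cover counting error only, since no molecular identifiers were given in the sources used here.

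Named were all Irf genes, the 3 highest members and the lowest of each list, the 2 genes most like each Irf gene, list members past the spread threshold and genes beside each Irf gene. Some genes under this rule are not reported here. Other list members were named after their values were seen. Members and lists were chosen with earlier results of these data known.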

Additional observations from a re-analysis of the deposited data

Results flagged for a closer look

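Of 105 sets of 4 values examined, 5 held a library far from the other 3, and chance alone marks about 1 in 20. For the log2 difference of Irf5 and Irf3, replicate 3 was low at 0.86 against 0.98 to 1.00 in the others, and the gap to the nearest was 0.843 of the range. Jak1 was high in replicate 2, at 219 TPM against 192 to 197 TPM, with a gap of 0.832 of the range. Tut1, the gene most like Irf3, was low in replicate 2, at 98.7 TPM against 109.8 to 110.2 TPM, with a gap of 0.966. Ifnl2 and Fcer2a had counts in replicate 1 alone, at 0.199 and 0.00905 TPM, so the gap was 1.00 of the range for each.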

How the results depend on the processing

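No paired analysis was possible because all 4 libraries belong to 1 group, so no groups could be matched by replicate number; genes were compared within each library. Of 224 alternative values for the pairs, 221 kept their direction. Irf8 minus Irf4 ranged from -0.0077 to 0.0337 when 1 replicate was left out, and it was below 0 without replicate 1. Irf9 minus Irf2 was -0.0118 in CPM and -0.26 with principal transcript lengths, where only the length differs. In log2(CPM + 0.1) the mean levels were 3.87 for Irf1, 5.26 for Irf2, 10.09 for Irf4, 7.48 for Irf5, 10.69 for Irf8 and 5.24 for Irf9. With principal transcript lengths they were 4.05 for Irf1, 5.21 for Irf2, 7.02 for Irf3, 9.11 for Irf4, 7.59 for Irf5, 10.45 for Irf8 and 4.96 for Irf9, and with a pseudocount of 1 Irf1 was at 3.75. The share of Irf4 was 34.9% by counts and 23.4% by principal transcript lengths.

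The spread test called 1 gene, 98 with no filter on low counts, and 1 to 18 when 1 replicate was left out (2 without replicate 1, 18 without replicate 2), and DESeq2 marked 43 dispersion outliers. The cause was not tested. None of 79 alternative values for Irf genes passed. For Irf7 the adjusted p ranged from 0.172 with no filter to 0.971, and it was not tested under a minimum of 50 counts in every library. Of 39 alternatives for lists, 35 stayed within 1.5 times. Outside that range, 0 B cell, 0 macrophage and 1 dendritic cell markers were detected at 5 TPM, and 0 B cell markers at 1 CPM. Irf7, with 42 to 295 counts, is the Irf gene whose precision depth limits most.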
